A study of Mus musculus with 24 samples.

Results

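Mock incubation of RNA depleted of small RNAs was examined on 6 of the 24 miRNA arrays of a mouse liver series. The 3 arrays titled with 0 U RNase formed the mock group and the 3 arrays of the same preparation with no RNase step formed the untreated group. Both groups came from the same 3 male mice, carried in the labels as animals 7, 10 and 9, whose fresh liver (0 h of storage) was extracted with the RNeasy Kit and on-column DNase, which leaves most small RNAs behind. The strain, genotype and age of these 3 mice are not given in the sources used here. For the mock group, 3 µg of the depleted RNA was kept for 30 min at 37 °C without enzyme. It was then isolated again with the miRNeasy Kit, which retains small RNAs. No further DNase step is described for this reisolation. The untreated RNA was neither incubated nor isolated again, so incubation and reisolation cannot be told apart. The other 18 arrays held depleted RNA with RNase at 2 doses and RNA with small RNAs from liver stored for 0 h or 96 h, with and without DNase. The mock arrays were the enzyme-free control of the RNase arrays, and their comparison with untreated RNA asked what the handling alone did to the signals.

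Mature miRNAs are short RNAs cut from hairpin precursors that direct Argonaute proteins to mRNAs through their seed, bases 2 to 8. On the array used here, RNA is labelled with cyanine 3 at its 3′ end and hybridized to short probes, so any labelled RNA that pairs with a probe adds to the signal of that miRNA. The miR-466, miR-467, miR-669 and miR-297 families of the mouse are rich in alternating U and G or A and C, a pattern shared with simple repeats that are common in longer transcripts. In liver, miR-122 marks hepatocytes, and let-7 members are abundant in most adult tissues.

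Of the miRNAs that met the calling rule below, mature sequences were found for 6 (RefSeq, GRCm38.p6). They are shown because they carry the changes of the comparison, with the seed in capitals. The single miRNA that was higher after mock incubation comes first.
miR-5119: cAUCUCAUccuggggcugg
miR-672-5p: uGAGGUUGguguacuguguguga
miR-574-3p: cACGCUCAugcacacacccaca
miR-669n: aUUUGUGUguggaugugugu
miR-32-3p: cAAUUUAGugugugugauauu
miR-6348: uCAGCCUUuauaaggugugugu

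No seed was shared among them. The gene of miR-5119 lies at chr11:98262638-98262656 on the plus strand, within the span of Cdk12. That of miR-672-5p lies at chrX:104116228-104116250 on the minus strand within the span of Nexmif, and miR-574-3p lies at chr5:64970364-64970385 on the plus strand, where the spans of Tlr6 and Fam114a1 both cover it. The position of miR-669n is chr3:115979905-115979924 on the plus strand within Slc30a7, that of miR-32-3p chr4:56895232-56895252 on the minus strand within Tmem245, and that of miR-6348 chr1:168490740-168490761 on the plus strand outside the span of any listed protein-coding gene. The other miRNAs that were lower were miR-466g, miR-669h-3p, miR-466m-3p, miR-468-3p and miR-467a-3p.

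Each array carried 1881 miRNAs on 56430 spots. The RNA integrity number, which falls as RNA breaks down, was 9.2, 9.3 and 9.4 in the untreated RNA of animals 7, 10 and 9 and 9.0, 9.1 and 9.2 in the mock RNA. It was 0.2 lower in each animal (two-sided exact permutation p = 0.2, n = 3 per group). The total signal of the detected miRNAs was 8313 to 9631 intensity units on the untreated and 7125 to 10043 on the mock arrays. On the log2 scale it differed by -0.06 (exact permutation p = 0.8). With 3 arrays against 3 such a test cannot go below 0.1. Exact permutation by swaps within animals cannot go below 0.25, and it gave p = 0.25 for the integrity number. The log10 signals of the labelling and hybridization control RNAs were higher after mock incubation in every animal, on average by 0.0505 (exact p = 0.2) and 0.0359 (exact p = 0.1), and their part in the results was not tested. The SD of the negative control spots was 3.55 on the untreated array of animal 10 and 2.03 to 2.38 on the other 5 arrays. All 8 arrays of an animal shared a slide, and each group kept the same slide position, so position and group cannot be told apart.

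The single call upward was miR-5119. Its signal was 1.91, 1.91 and 0.83 intensity units in the untreated RNA of animals 7, 10 and 9, below detection on each array. In the mock RNA it was 6.49, 9.39 and 7.48, and it was detected on each array. The groups did not overlap, and all 3 of its probes moved the same way. The change was 2.16 (SE 0.30, limma, adjusted p = 0.000168) on the glog2 scale, a variance-stabilized log2 scale on which 1 is a 2-fold change at high signals. Since it was not detected in untreated RNA, the difference is stated as at least 4.37-fold higher. Without the arrays of animal 7 the change was 2.47 with an adjusted p of 0.0602 (limma), so that the call was lost while the change was no smaller. For a group with no detection such a bound uses, on each array, the higher of the lowest detected signal and the miRNA's own signal.

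In all, 1 miRNA was higher and 10 were lower in mock than in untreated RNA, called in limma at an adjusted p below 0.05 with a change of at least 1 among the 631 miRNAs tested. These calls made up 0.158% and 1.58% of the tested miRNAs, and 48 miRNAs had an unadjusted p below 0.05. The glog2 values of the groups did not overlap for all 11, beside 5.23% of the tested miRNAs that were lower and 7.61% that were higher without overlap. Of the 631 tested, 271 were detected on at least 1 of the 6 arrays and 360 on none. The median change of all tested miRNAs was 0.16, and the changes below are to be read against it. Without the arrays of animal 7 no miRNA was called (42 had an unadjusted p below 0.05). Without animal 10 there were 1 higher and 3 lower, and without animal 9 there were 1 higher and 5 lower. The split between the directions depended on the scaling. It was 12 higher and 12 lower when arrays were set to the 75th percentile of all miRNAs, 7 and 21 after quantile normalization, and 1 and 2 with normexp background correction. When the arrays were paired by animal and the 6 arrays were fitted alone, 4 were higher and 28 lower in limma, or 0.634% and 4.44% of the tested miRNAs. The 10 lower and the 1 higher miRNA were all among these. With the animals as a block in the fit of all 24 arrays there were 1 higher and 8 lower, and miR-32-3p and miR-6348 lost their calls (limma, adjusted p = 0.054 each). In the paired fit of the 6 arrays alone the spread of each miRNA was taken almost wholly from the trend over all miRNAs.

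**Figure D1:**
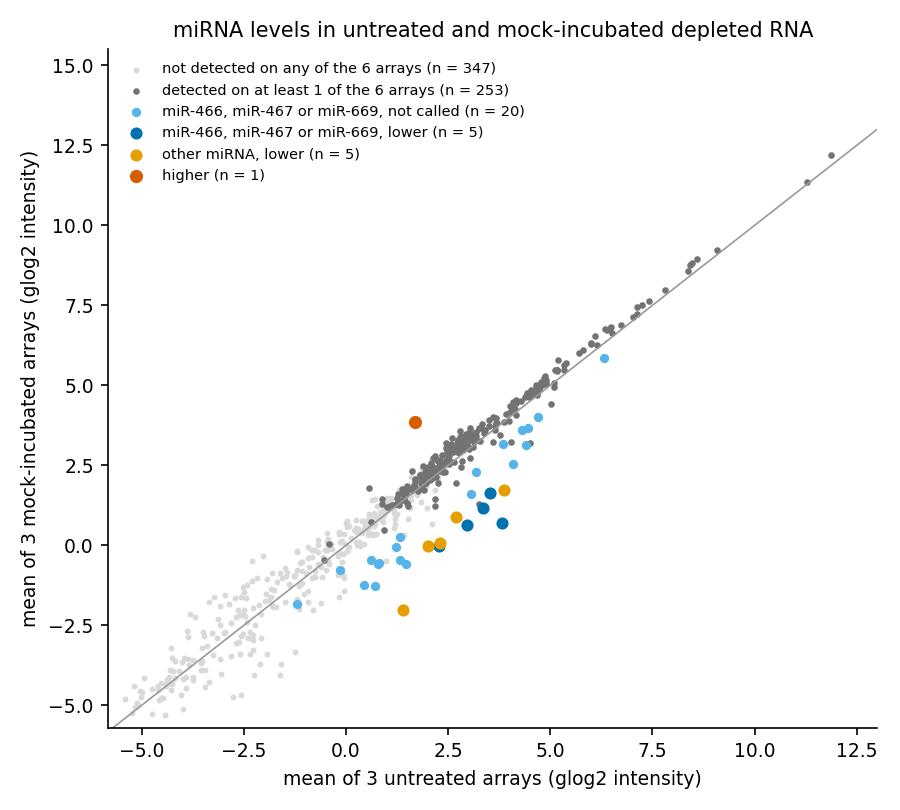
Mean glog2 level of each of the 631 tested miRNAs on the 3 untreated arrays (horizontal axis) and the 3 mock arrays (vertical axis), with the line of equal levels. The 5 called members of miR-466, miR-467 and miR-669 and the 5 other lower miRNAs lie below the line, and miR-5119 lies above it.

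Of the 10 lower miRNAs, 8 were detected in untreated RNA, and 7 of these 8 were detected on no mock array. For miR-466g, detected on each untreated array, the signal was 14.3, 12.9 and 4.29 units in animals 7, 10 and 9, and after mock incubation it was -0.11, 0.77 and 0.06, with no detection. It changed by -3.11 (SE 0.53, adjusted p = 0.0019, limma) and was at least 5.50-fold lower. The signal of miR-467a-3p was 8.56, 8.93 and 3.46 units in untreated and 0.46, 0.61 and 0.64 in mock RNA. This miRNA changed by -2.17 (SE 0.30, limma, adjusted p = 0.000168), which is at least 3.95-fold lower. In both cases the groups did not overlap, and all 4 probes of each miRNA moved the same way.

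For miR-669n the signal was 8.62, 11.8 and 4.07 units in untreated and 0.94, 2.16 and 0.50 in mock RNA, a change of -1.89 (SE 0.39, limma, adjusted p = 0.010). It too passed from 3 detections to none and was at least 3.53-fold lower. miR-574-3p, an arm of a hairpin whose other arm is miR-574-5p, was detected on each untreated array at 11.4, 13.2 and 5.85 units and on 1 mock array, with signals of 1.35, 0.89 and 1.45. Its change was -2.13 (SE 0.47, limma, adjusted p = 0.017). The lowest untreated value of each of these miRNAs was in animal 9.

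Another 4 of the lower miRNAs, miR-669h-3p, miR-466m-3p, miR-468-3p and miR-32-3p, were detected on 2 untreated arrays and on no mock array. Their changes were -2.32, -2.28, -2.22 and -1.80, and their bounds were at least 3.01-fold, 1.89-fold, 1.92-fold and 2.51-fold lower. The remaining 2, miR-672-5p and miR-6348, were not detected on any of the 6 arrays. Their changes of -3.41 and -2.03 were made of signals between -0.79 and 2.95 units, so no fold is given for them. The calls of miR-32-3p and miR-6348, with a limma adjusted p of 0.0487 each, were also lost on the deposited vsn values (adjusted p = 0.0519 each). These 2 calls, and those of miR-672-5p and miR-468-3p, were lost whichever animal was left out. With scaling to the control RNAs or no normalization, these 4 miRNAs, miR-669h-3p and miR-466m-3p all lost their calls. In those settings miR-672-5p changed by -0.53 and -0.45.

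**Figure D2:**
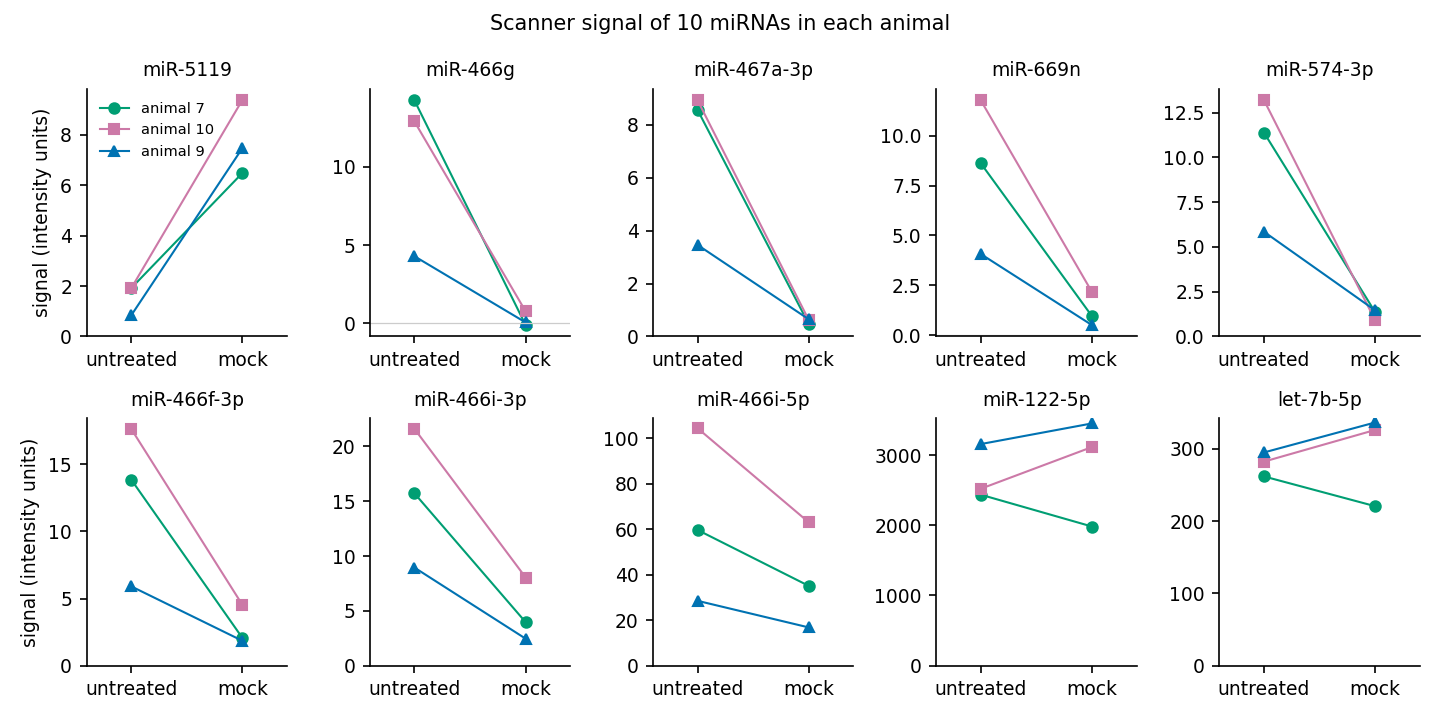
Scanner signal (intensity units, each panel with its own scale) of 10 miRNAs in untreated and mock RNA, with a line for each of the 3 animals. miR-5119 rises in each animal, the members of miR-466, miR-467 and miR-669 and miR-574-3p are lower in each animal, and miR-122-5p and let-7b-5p are lower in animal 7 and higher in animals 10 and 9.

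Detection calls, which need no normalization between arrays, were compared next. There were 142 miRNAs detected on all 6 arrays and 1591 detected on none. Of the rest, 95 were detected on more mock than untreated arrays and 41 on fewer. The lowest detected signal was 0.966 to 1.16 units on the untreated and 0.672 to 0.890 units on the mock arrays, so weaker signals could be detected in mock RNA. A full switch, from all 3 untreated arrays to no mock array, was seen for 9 miRNAs, namely miR-466g, miR-467a-3p, miR-467c-3p, miR-467d-3p, miR-467e-3p, miR-669f-3p, miR-669n, miR-1943-3p and miR-6973a-3p. The reverse switch was seen for miR-5119 and miR-191-3p. For miR-191-3p, miR-1943-3p and miR-6973a-3p the switch went with small differences of signal. miR-191-3p had 3.33, 2.53 and 2.91 units in untreated and 3.81, 3.25 and 1.45 units in mock RNA, and its groups overlapped.

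The miR-466, miR-467, miR-669 and miR-297 families together had 61 members on the array, a list taken up because of what earlier results of these arrays showed. None was detected on more mock than untreated arrays, 15 were detected on fewer, 7 were detected on all 6 arrays and 39 on none. The number detected per array was 22, 20 and 15 in the untreated RNA of animals 7, 10 and 9 and 7, 8 and 8 in the mock RNA. The means were 19 ± 3.61 and 7.67 ± 0.577 (SD, n = 3 each), given as a description. Their summed detected signal was 247, 325 and 98.4 units in untreated RNA and 61.3, 129 and 39.9 units in mock RNA. This was 2.45% ± 1.13 (SD, n = 3) of the total detected signal in untreated and 0.867% ± 0.412 (SD, n = 3) in mock RNA. The mock value was lower than the untreated value of the same animal in 3 of 3 animals for each of these measures.

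Of the 61 members, 25 passed the filter on low values, and 5 of these 25 were called lower and none higher, beside 1.58% lower over all tested miRNAs. In the paired fit 15 of the 25 were lower, beside 4.44%. The median change was -1.38 over the 25, against 0.16 over all 631 tested miRNAs. With no filter the median was -1.07 over all 61 members and 0.07 over all 1881 miRNAs, and 39 of the 61 (63.9%) were lower in all 3 animals against 262 of the 1881 (13.9%). The filter counts detections on the untreated arrays too, and the values of the 25 are given as a description.

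The 7 members detected on all 6 arrays were miR-466i-5p, miR-467f, miR-466h-3p, miR-466i-3p, miR-669p-3p, miR-466f-3p and miR-466q. For miR-466i-5p the signal was 59.7, 104 and 28.5 units in untreated RNA and 35.1, 63.0 and 16.8 units in mock RNA. For miR-467f it was 19.3, 26.4 and 11.2 units in untreated and 7.04, 15.3 and 5.88 units in mock RNA. Each animal moved down, although the untreated and mock ranges of both miRNAs overlapped because animals 7, 10 and 9 differed in level.

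Within an animal, the mock signal of these 7 miRNAs was 0.148 to 0.588 times the untreated signal in animal 7, 0.256 to 0.603 times in animal 10 and 0.275 to 0.593 times in animal 9. The medians were 0.329, 0.565 and 0.496. For the other 135 miRNAs detected on all 6 arrays the median ratios were 0.824, 1.12 and 1.02, and the ratio was below 1 for 121, 41 and 58 of them. All 7 had a ratio below 1 in every animal. None of the 7 was called in the fit of all arrays. The largest changes were -1.55 (SE 0.49, adjusted p = 0.201, limma) for miR-466f-3p and -1.29 (SE 0.45, adjusted p = 0.225, limma) for miR-466i-3p, and both were lower in the paired fit.

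**Figure D3:**
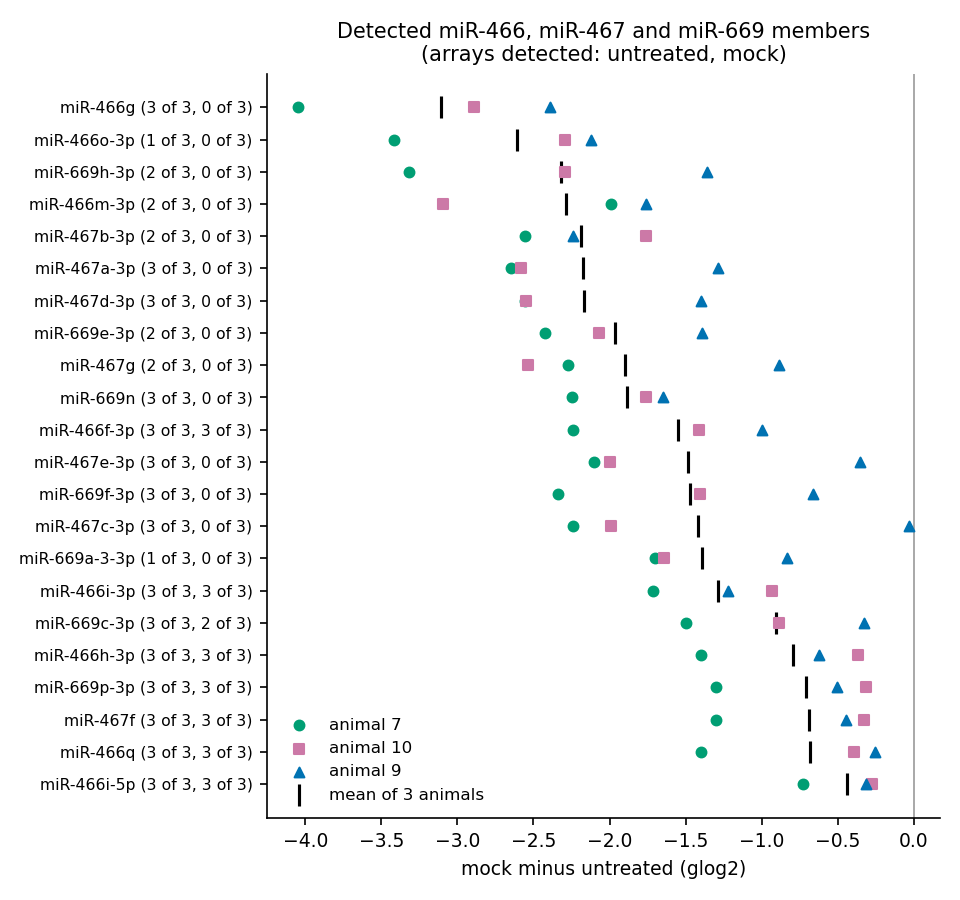
Change from untreated to mock RNA (glog2) of the 22 members of miR-466, miR-467 and miR-669 detected on at least 1 of the 6 arrays, in each animal (symbols) and as the mean (bar), with no filter on low values. Every point lies below 0, but 14 of the 22 were detected in untreated RNA alone and so were chosen through the group where they were high.

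There were 12 miRNAs detected on all 6 arrays with a lower glog2 value after mock incubation in all 3 animals, 8.45% of the 142. They comprised the 7 members above, miR-1187, miR-3082-5p, miR-574-5p, miR-7047-3p and miR-877-3p. The signal of miR-3082-5p was 16.9, 28.1 and 7.83 units in untreated and 4.81, 10.5 and 1.82 units in mock RNA, a change of -1.30 (SE 0.46, adjusted p = 0.225, limma) that was a call in the paired fit. For miR-1187 it was 12.2, 20.6 and 5.14 units in untreated and 5.73, 10.4 and 1.62 units in mock RNA. The sequences found for these miRNAs and for others in the comparison are set out with UGUGUG or ACACAC in capitals, since runs of these letters recur in many of them. Neither hexamer is in miR-7047-3p or miR-877-3p.
miR-574-3p: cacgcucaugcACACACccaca
miR-669n: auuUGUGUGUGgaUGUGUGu
miR-32-3p: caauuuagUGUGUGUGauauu
miR-672-5p: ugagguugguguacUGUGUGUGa
miR-6348: ucagccuuuauaaggUGUGUGu
miR-466i-3p: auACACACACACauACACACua
miR-467f: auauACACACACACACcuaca
miR-466q: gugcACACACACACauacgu
miR-574-5p: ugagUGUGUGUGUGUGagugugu
miR-1187: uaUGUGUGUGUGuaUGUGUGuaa
miR-3082-5p: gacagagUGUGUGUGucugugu
miR-7047-3p: ucacccucacccuuccuccuucc
miR-877-3p: uguccucuucucccuccuccca
let-7b-5p: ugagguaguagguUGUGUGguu
miR-7226-5p: gccagggaaguugauUGUGUGaaggg

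The hexamers UGUGUG and ACACAC were searched on the mature strand, with overlapping matches merged, after the values had been seen. They were found in 36 of the 1608 array miRNAs with a sequence (2.24%), 25 with UGUGUG and 11 with ACACAC. Of the 36, 17 passed the filter, with 5 lower and none higher. These 5 are the lower miRNAs whose sequences prompted the search, so the count restates that choice and is given as a description. In the paired fit 8 of the 17 were lower, and so were 6 of the 509 tested miRNAs with neither hexamer. The 8 include the same 5, so this comparison too restates the choice and is no test of the hexamers. A hexamer did not always go with a lower signal: let-7b-5p had 262, 282 and 295 units in untreated and 221, 326 and 337 units in mock RNA. miR-7226-5p changed by 0.13 on the glog2 scale. Its mock scanner signal was nevertheless 0.76, 0.95 and 0.93 times the untreated signal in animals 7, 10 and 9. Of the 10 lower miRNAs 5 had a sequence and of the 61 family members 7 had one. A check of the hexamers over either set is therefore void, since under 80% of its members could be read.

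No marker miRNA of liver cells was called. miR-122-5p, the leading hepatocyte miRNA, had signals of 2436, 2521 and 3157 units in untreated and 1982, 3116 and 3452 units in mock RNA. Its change was 0.35 (SE 0.49, 95% interval -0.67 to 1.36, limma, adjusted p = 0.992), and the groups overlapped. The sign was not settled, as scaling to the control RNAs gave -0.05. Its share of the total detected signal was 30.6% ± 6.47 (SD, n = 3) in untreated and 32.8% ± 6.13 (SD, n = 3) in mock RNA. miR-3963 had 2003, 1996 and 1442 units in untreated and 1699, 1504 and 1420 units in mock RNA, a change of 0.08 (SE 0.59) that became -0.32 under that scaling.

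Other miRNAs of liver cells listed here were not called either. All 9 let-7 5p arms were detected, with changes between 0.22 and 0.36, and 8 of the 9 were below 0 (-0.18 to 0.0011) when scaled to the control RNAs. miR-192-5p, enriched in liver and gut, changed by 0.34 (SE 0.33), the erythroid miR-451a by 0.37 (SE 0.34), the endothelial miR-126a-3p by 0.42 (SE 0.40) and the myeloid miR-223-3p by 0.55 (SE 0.34), with limma adjusted p from 0.855 to 0.992. Among the marker miRNAs of tissues other than liver, miR-1a-3p, miR-124-3p, miR-9-5p, miR-133a-3p and miR-375-3p were detected on none of the 6 arrays. The red blood cell miR-144-3p, the immune cell miR-142a-3p and miR-150-5p, the stromal miR-143-3p and the biliary miR-200b-3p were likewise detected on none. Of these, miR-200b-3p changed by -0.64 (SE 0.60), from signals below detection. The hepatocyte miR-148a-3p was detected on 1 array of each group.

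Lists of miRNA clusters and families gave few calls. The miR-29 and miR-30 families, the miR-15/16 and miR-26 families, the miR-17-92 and miR-106b-25 clusters and the miR-23, miR-24 and miR-27 clusters held no call, and their medians over the tested members were 0.18, 0.29, 0.21 and 0.30. Of the 200 5p arms of the miR-6896 to miR-7093 block 96 were tested with a median of 0.12, and of its 198 3p arms 46 with a median of 0.11, again with no call. The largest increases among miRNAs that were detected on all arrays of a group and higher in all 3 animals on the glog2 scale, after miR-5119, were those of miR-139-5p (0.78, SE 0.35), miR-3475-5p (0.76, SE 0.24), miR-7080-3p (0.75, SE 0.32) and miR-3092-3p (0.64, SE 0.28), with limma adjusted p from 0.201 to 0.532. The scanner signals of miR-139-5p and miR-3475-5p were slightly lower in mock RNA in animal 7, before normalization. For miR-139-5p the signal was 4.68, 2.36 and 6.24 units in untreated and 4.61, 6.42 and 8.24 units in mock RNA, and its groups overlapped. The glog2 values of the other 3 did not overlap between the groups, but their scanner signals did. Of all 631 tested miRNAs, 7.61% were higher without overlap of the glog2 values. None of the 4 passed the adjusted threshold.

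The number of detected miRNAs was 230, 192 and 186 in the untreated RNA of animals 7, 10 and 9 and 204, 238 and 203 in the mock RNA. The means were 203 ± 23.9 and 215 ± 19.9 (SD, n = 3 each; exact permutation p = 0.5), with no common direction over the animals. With a single detection level of 1.16 units on all arrays the difference turned to -94.7 (exact permutation p = 0.1). MiRNAs numbered 3000 and above, which were named late and mostly from sequencing, were 41.7%, 40.6% and 39.2% of the detected miRNAs in untreated and 46.6%, 48.3% and 43.4% in mock RNA. The difference was 5.54 percentage points and the groups did not overlap (exact permutation p = 0.1, the smallest possible over 20 splits). Exact permutation by swaps within animals gave p = 0.25, the smallest that such swaps can give. The difference was 1.57 points (exact permutation p = 0.4) with the single detection level. The number of such miRNAs was 96, 78 and 73 in untreated and 95, 115 and 88 in mock RNA (exact permutation p = 0.3), so it did not rise in animal 7. The number detected among miRNAs numbered 300 to below 1000, the class of the miR-466, miR-467 and miR-669 families, was 51, 46 and 36 in untreated and 32, 37 and 29 in mock RNA (exact permutation p = 0.2). Of the 10 lower calls 8 fell in that class, of whose 446 members 124 were tested. Over all 631 tested miRNAs 1.58% were lower. The 8 include the 5 called members of these families, so the count partly repeats the one given above.

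Set beside the other groups, the number of detected members of the miR-466, miR-467, miR-669 and miR-297 families in mock RNA was close to that of the fresh arrays with small RNAs. It was 15 to 22 per array in untreated depleted RNA and 7 to 8 in mock RNA. It was 8 to 10 on the 6 arrays of fresh RNA with small RNAs, 8 to 11 on the 6 RNase arrays and 11 to 30 on the 6 arrays of liver stored for 96 h. miR-669n had 1.003 to 2.92 units on the fresh arrays with small RNAs, 4.07 to 11.8 units in untreated depleted RNA, 0.50 to 2.16 units in mock RNA and 44.1 to 599 units on the stored arrays. For miR-467a-3p the ranges were 0.50 to 1.18, 3.46 to 8.93, 0.46 to 0.64 and 1.22 to 4.92 units in the same order, so that untreated depleted RNA had the highest mean of all groups. miR-5119 was not detected on the 6 fresh arrays with small RNAs (0.91 to 1.81 units) nor in untreated depleted RNA, and had 8.84 to 21.3 units on the RNase arrays and 74.6 to 323 units on the stored arrays.

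**Figure D4:**
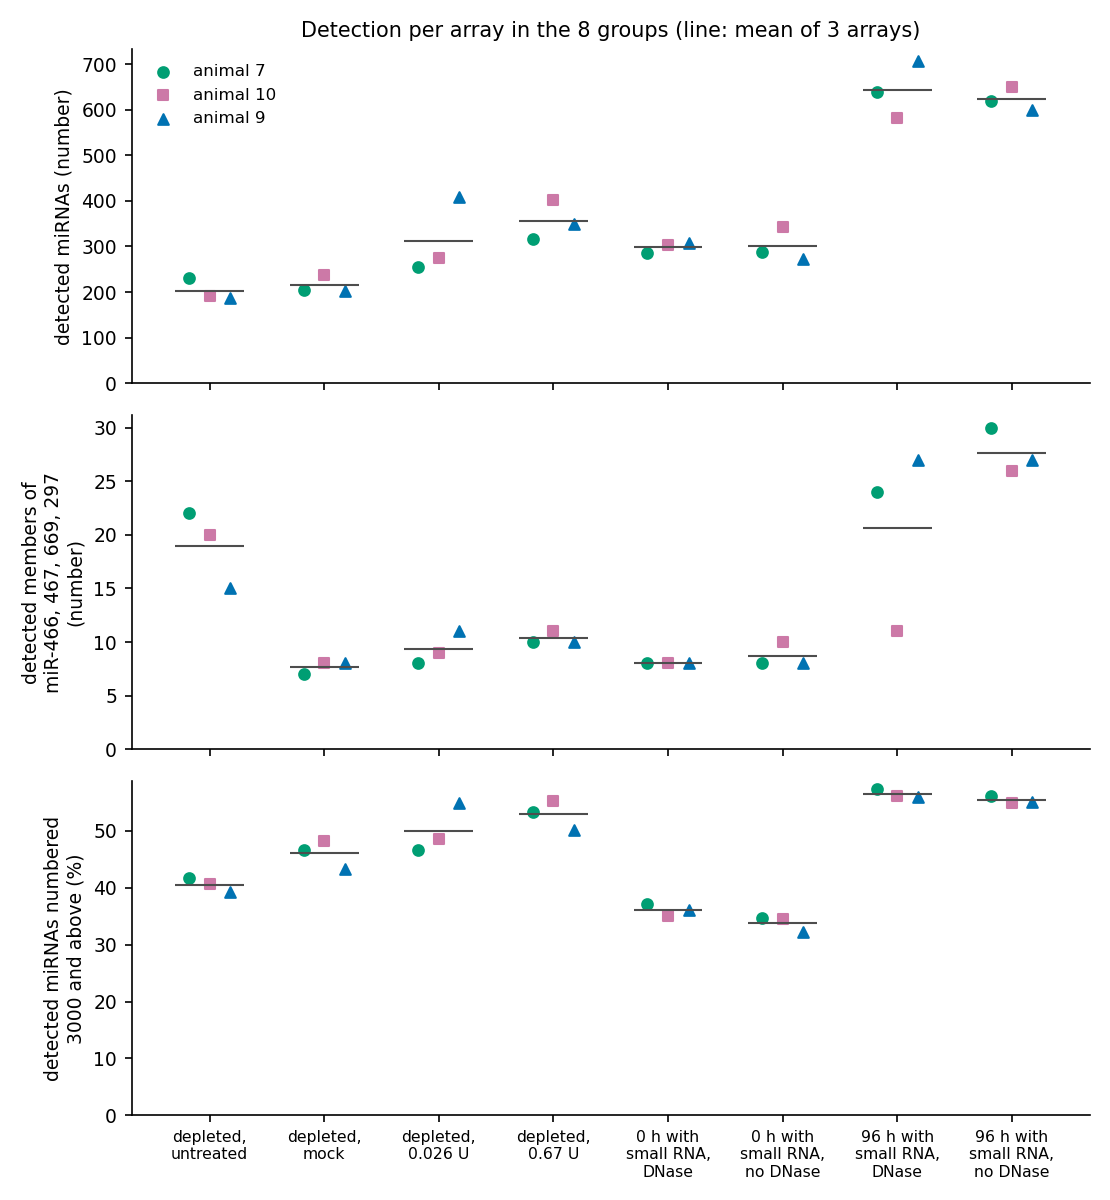
Number of detected miRNAs, number of detected members of the miR-466, miR-467, miR-669 and miR-297 families and percentage of detected miRNAs numbered 3000 and above on each of the 24 arrays, with the mean of each group as a line. In the middle panel untreated depleted RNA sits at 15 to 22 and mock RNA at 7 to 8, and the 2 RNase doses of animal 9 are placed by its descriptions because its labels contradict each other.

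The RNase arrays were compared with either control. Taken as the mean of both doses, RNase gave 282 higher and 0 lower miRNAs against mock RNA (44.7% and 0% of those tested, limma) and 287 higher and 25 lower against untreated RNA (45.5% and 3.96%). Against mock RNA, 18 miRNAs were lower at an unadjusted p below 0.05, and the rank test named in the methods called none in either direction (249 higher and 54 lower before adjustment). Both comparisons use the same RNase arrays. Of the 25 tested members of the miR-466, miR-467, miR-669 and miR-297 families, 8 were higher and none lower against mock RNA, and 2 were higher and 14 lower against untreated RNA. miR-466g was 1.18 (SE 0.46) above mock RNA and -1.93 (SE 0.46) from untreated RNA, and miR-466f-3p was 1.72 (SE 0.42) above mock and 0.18 (SE 0.42) above untreated RNA. For miR-494-3p the values against both controls were close. It had 344, 626 and 275 units in untreated and 287, 628 and 241 units in mock RNA, and it was 6.62 (SE 0.42) higher in RNase than in mock RNA and 6.78 (SE 0.42) higher than in untreated RNA on the glog2 scale. The count of lower calls against mock RNA depended on the scaling. There were 157 higher and 184 lower when each array was set to the 75th percentile of its consistently detected miRNAs, 173 and 78 with that of all miRNAs, 186 and 165 after quantile normalization and 38 and 21 with normexp. Against untreated RNA the same scales gave 153 and 207, 200 and 28, 197 and 146, and 43 and 20.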

How the data were processed

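The 6 arrays were part of 24 one-colour mouse miRNA arrays with 4415 probes, read with Agilent Feature Extraction 10.10.1.1 per the file headers. The deposited scanner values are background-subtracted fluorescence intensity, with a detection flag for each miRNA, and the authors also deposited vsn-normalized log2 values. Here the signal of a detected miRNA was its total gene signal and otherwise the sum of its probe signals. All arrays were normalized with a vsn fit written in Python 3.11.15 (7 rounds, 5 slices, 90% kept), which differed from the deposited log2 values with an SD of 0.0956. Testing covered miRNAs with a detection flag on 5 or more of the 24 arrays and was done with limma 3.58.1 in R 4.3.3, with 8 group means, a trended prior and Benjamini-Hochberg adjustment. A call needed an adjusted p below 0.05 and a change of at least 1. Single values were tested by exact permutation over 20 splits, which do not use the pairing by animal.

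Same-numbered arrays come from the same animal, and the pairing was taken from these labels. Their deviations from the group means correlated at 0.213, 0.517 and 0.368. Between untreated and mock arrays of different animals the correlations were -0.428 to 0.120. Animal, slide and scan cannot be told apart. The p-values concern 3 animals, and this number limits the precision. The named miRNAs were all those called, the full detection switches and the 10 with the largest shares of signal. Also named were the 5 largest increases and decreases detected on all arrays of a group with the same direction in all animals. A fixed list held 8, among them miR-122-5p, miR-652-5p, miR-494-3p and the erythroid miR-451a. The members and lists were chosen with earlier results of these data known. MiRNA names are those of the scanner files, and sequences are from RefSeq GRCm38.p6. RNase arrays entered as the mean of both doses, since the doses of animal 9 are contradictory in the labels. On simulated data with 200 of 631 miRNAs changed, 59.4% of changes of 1.5 and 77.7% of changes of 2 were recovered with 1 false call. The simulation changed far more miRNAs than were called here and held no animal or slide effect. Its shares therefore need not hold for the mock comparison. The alternatives were other scalings, filters, detection rules, fits and left-out animals, as well as vsn on the 12 depleted arrays, which was added after seeing the data.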

Additional observations from a re-analysis of the deposited data

How the results depend on the processing

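The lower miRNAs numbered 26 with the 75th percentile of consistently detected miRNAs, 21 after quantile normalization, 6 with scaling to the control RNAs, 6 with no normalization, 2 with normexp, 36 with no filter and 5 with the compared groups alone. The higher numbered 3 with the first of these, 12 with the 75th percentile of all miRNAs, 7 after quantile normalization and 2 with no filter. Only 4 of the 10 miRNAs called lower above kept their call with scaling to the control RNAs. The same 4 kept it with no normalization, namely miR-466g, miR-467a-3p, miR-574-3p and miR-669n. With animals as a replicate block there were 1 higher and 8 lower over 24 arrays, and 4 higher and 28 lower over the 6 arrays alone. The methods' rank test called 0 in each comparison. With 3 arrays against 3 this test cannot pass the threshold for a call, even before adjustment. Its 0 for mock against untreated RNA was thus fixed in advance, and no conclusion is drawn from it. In the RNase comparisons its smallest possible p leaves little room to pass after adjustment. Without 1 animal the higher ranged from 0 to 1 and the lower from 0 to 5, with 0 of each without animal 7. RNase gave 157, 173, 186 and 38 higher miRNAs against mock RNA with both percentiles, quantile and normexp, and 153, 179, 179 and 43 against untreated RNA with the detected percentile, control RNAs, no normalization and normexp. The vsn fit of the 12 depleted arrays gave 1 higher and 10 lower.

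Over 35 named miRNAs and 13 alternatives, 49 of 455 changes reversed sign, none of a called miRNA, 48 lost and 9 gained a call. With the detected percentile the reversed values were -0.0088 for let-7f-5p, -0.055 for miR-1224-5p, -0.12 for miR-191-3p, -0.017 for miR-21a-5p, -0.19 for miR-3963, -0.12 for miR-494-3p, -0.066 for miR-6366, -0.25 for miR-652-5p and -0.12 for miR-8117. With no normalization they were -0.039, -0.085, -0.15, -0.048, -0.22, -0.15, -0.096, -0.17 and -0.15 in that order. With control RNAs they were -0.13, -0.18, -0.24, -0.14, -0.32, -0.24, -0.19, -0.23 and -0.24 in that order, -0.055 for let-7a-5p, -0.042 for let-7b-5p, -0.038 for let-7c-5p, -0.047 for miR-122-5p, -0.045 for miR-192-5p and -0.058 for miR-22-3p. With normexp they were -0.032 for miR-1224-5p, -0.045 for miR-3963, -0.018 for miR-494-3p, -0.28 for miR-6973a-3p and -0.077 for miR-8117. After quantile normalization they were 0.12 for miR-1943-3p, -0.17 for miR-494-3p, -0.038 for miR-6366 and -0.12 for miR-8117, and with the percentile of all miRNAs 0.31 for miR-1943-3p. Without 1 animal the ranges were -0.24 to 0.058 for miR-1943-3p, -0.077 to 0.15 for miR-652-5p, -0.088 to 0.23 for miR-3963, -0.056 to 0.42 for miR-191-3p, -0.0033 to 0.35 for miR-494-3p and -0.0025 to 0.37 for miR-8117. The difference in detected miRNAs ranged from -4.5 to 31.5 and that in log2 total signal from -0.13 to 0.063. A fixed detection level of 1.16 units gave -94.7 detected miRNAs (exact permutation p = 0.1). The cause of these differences was not tested. Low signals near background limit the values of most called miRNAs.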
